A study of Rattus norvegicus with 30 samples.

Results

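The NADPH oxidase subunits examined in the kidney of salt-loaded rats were *Cybb*, *Cyba*, *Ncf1*, *Ncf4*, *Nox4*, *Rac1* and *Rac2*, 7 of the 32545 genes in the deposited count table, found there by gene symbol. They were measured by mRNAseq in 30 libraries. Male Sprague-Dawley (SD) rats ate the purified AIN-76A diet with 0.4% NaCl (LS), or with 4.0% NaCl for 14 d (HS14) or 21 d (HS21), each group being other rats. The renal cortex (Cx) and outer medulla (OM) of the right kidney gave 5 libraries per tissue and diet. No rat carried an engineered allele, and the sources used here tie no age to the sequenced rats of each group. No label says that a library was pooled from several rats, so the spread between libraries was taken as the spread between rats.

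The NADPH oxidases move electrons from NADPH across a membrane to oxygen and so make superoxide or hydrogen peroxide. The phagocyte enzyme consists of 2 membrane proteins, the catalytic gp91phox (*Cybb*, also named NOX2) and its partner p22phox (*Cyba*). It becomes active when cytosolic proteins, among them p47phox (*Ncf1*) and p40phox (*Ncf4*), join them with a Rac GTPase, mostly RAC2 (*Rac2*) in blood cells and RAC1 (*Rac1*) elsewhere. NOX4 (*Nox4*) was first known as the renal oxidase, is abundant in tubule cells, needs p22phox but none of the cytosolic subunits, and releases mainly hydrogen peroxide. The comparison made here was therefore that of the phagocyte subunits with *Nox4*.

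At 21 d of HS the mRNA of phagocyte subunits and that of *Nox4* moved in opposite directions in the Cx. *Cybb*, *Ncf1*, *Ncf4* and *Rac2* rose to 2.45, 3.53, 2.74 and 3.92 times their LS means, whereas *Nox4* fell to 47.3% of its LS mean. For each of these 5 genes the HS21 and LS libraries did not overlap. Over all genes, every HS21 library lay above LS for 12.6% and below LS for 13.8%. *Cyba*, the partner of both enzymes, and *Rac1* differed little. In the OM *Ncf4* and *Rac2* rose at HS21, with adjusted *P* values near the threshold of 0.05, and *Nox4* was low and variable on every diet. These are bulk tissue values, in which fewer cells of a type and less RNA per cell cannot be told apart.

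Counts on genes per library ranged from 12748841 to 21842843, except in OM HS14 replicate 10, which had 5408126. By the paper's mapping summary, this library also had the lowest share of exonic bases and the highest share of intronic bases of all libraries. In the same summary every Cx HS21 library had a higher intronic share than every Cx LS library. Every OM LS library had a lower exonic share than every Cx LS library. The part of these shares in the values was not tested. The tissue labels were checked against tubule markers. The summed level of 4 thick ascending limb genes was 1335 to 3109 CPM (read counts scaled to a common library size) in the Cx and 10011 to 22054 CPM in the OM. The sum of 10 proximal tubule genes was 12363 to 23018 CPM in the Cx and 2646 to 15079 CPM in the OM. On LS, 8 of these 10 genes were called lower in the OM and 1 higher. *Aqp1* had a higher mean in OM LS (2770 CPM) than in Cx LS (1672 CPM), so it weighs more in the OM sum. The highest of the OM sums belonged to OM LS replicate 2 and lay within the Cx range, while no other OM library exceeded 8243 CPM. Within Cx HS14, replicate 10 stood apart with a proximal tubule sum of 15157 CPM against 20483 to 21452 CPM in the other 4 libraries, and a thick ascending limb sum of 2814 CPM against 1580 to 1719 CPM. Values that turn on one of these 3 libraries are given with and without it.

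In Rnor_6.0, the genome build of the counts, *Cybb* lies on chromosome X at 14578264 to 14612547 on the plus strand and *Cyba* on chromosome 19 at 55249616 to 55257876 on the minus strand. *Ncf1* is on chromosome 12 at 25497104 to 25506300 (plus) and *Ncf4* on chromosome 7 at 119482272 to 119499425 (plus). *Rac2* lies near *Ncf4* on chromosome 7 at 119783849 to 119797098 (minus), and *Rac1* on chromosome 12 at 13090372 to 13110592 (plus). *Nox4* spans chromosome 1 from 150797084 to 150976194 (plus). All are protein-coding genes, the counts cover whole genes, and no other gene of the table overlapped one of them. The counting is stated to have used the defaults of featureCounts, which leave out reads that align to several places, so reads shared by paralogs such as *Rac1* and *Rac2* are not part of these counts.

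The bases upstream of the gene start are shown for *Cybb* and *Nox4*, which changed in opposite directions, for *Cyba*, which serves both, and for *Ncf1*. These are the 4 of the 7 members matched in the RefSeq table used here (build GRCr8), and *Ncf4*, *Rac1* and *Rac2* were not matched. GGAA (TTCC on the other strand), the core of the sites bound by PU.1 (*Spi1*) and other ETS factors, is in capitals. The last base printed is the one before the gene start.
Cybb (chrX:16065066-16065315, minus strand, 250 bases): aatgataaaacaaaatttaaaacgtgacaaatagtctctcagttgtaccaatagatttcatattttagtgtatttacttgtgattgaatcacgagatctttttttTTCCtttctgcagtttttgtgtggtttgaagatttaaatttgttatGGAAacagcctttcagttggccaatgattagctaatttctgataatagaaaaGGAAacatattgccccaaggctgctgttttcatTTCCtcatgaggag
Cyba (chr19:67404215-67404464, minus strand, 250 bases): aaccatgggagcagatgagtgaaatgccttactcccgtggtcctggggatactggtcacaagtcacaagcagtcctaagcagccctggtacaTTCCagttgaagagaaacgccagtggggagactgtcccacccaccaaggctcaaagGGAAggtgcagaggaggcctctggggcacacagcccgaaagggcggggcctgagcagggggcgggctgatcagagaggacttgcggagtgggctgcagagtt
Ncf1 (chr12:28121635-28121815, plus strand, 181 bases): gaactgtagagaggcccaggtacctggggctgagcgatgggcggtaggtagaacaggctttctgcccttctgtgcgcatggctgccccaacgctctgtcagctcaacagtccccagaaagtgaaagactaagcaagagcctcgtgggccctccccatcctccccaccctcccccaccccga
Nox4 (chr1:150313639-150313735, plus strand, 97 bases): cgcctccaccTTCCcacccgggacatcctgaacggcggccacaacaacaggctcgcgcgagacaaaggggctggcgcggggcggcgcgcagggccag

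The stretch before *Cybb* held GGAA 4 times, 145, 99, 47 and 14 bases before the start, that before *Cyba* 2 times, that before *Nox4* once and that before *Ncf1* not at all. Lengths differed, and GGAA on either strand was in 95.8% of the 33469 windows of 300 bases (laid out as 250 before the start and 50 from it on) in the table, so these counts describe the letters only. The longer motif GAGGAAGT, searched on both strands and containing GGAA, was in 2.42% of the windows and in none of these 4. Base composition differed widely among the members. GC made up 35.7% of the *Cybb* window, 59.7% of the *Ncf1* window, 61.0% of the *Cyba* window and 73.0% of the *Nox4* window, with a median of 51.7% over all windows. For *Ncf1* and *Nox4* only 181 and 97 of the 300 bases lay before the gene start used here, and the rest lay within the gene.

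Levels of different genes were compared as CPM per kilobase of gene length. In Cx LS *Cyba* was highest with 283 CPM per kb (268 to 304 in the 5 libraries), followed by *Nox4* with 143 (133 to 153) and *Rac1* with 108 (95.8 to 117), and these ranges did not overlap. The other phagocyte genes were far lower than *Rac1*. *Cybb* had 10.1 CPM per kb (9.01 to 12.4), *Rac2* 7.72 (6.22 to 9.41), *Ncf1* 4.77 (3.50 to 5.58) and *Ncf4* 2.78 (2.19 to 3.77). In this lower part of the order *Cybb* overlapped with *Rac2* and *Ncf1* with *Ncf4*, while *Rac2* lay wholly above *Ncf1*. Of the catalytic subunits *Nox4* thus exceeded *Cybb* in the Cx, and by Cx HS21 the distance was smaller, with 67.7 CPM per kb (63.4 to 71.1) for *Nox4* and 24.6 (14.0 to 36.2) for *Cybb*. *Nox4* then stood below *Rac1*, at 99.9 (96.8 to 104), with no overlap.

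The order differed in the OM. In OM LS *Rac1* had the highest mean at 92.0 CPM per kb and *Cyba* had 36.8 (23.2 to 60.2), while *Nox4*, at 6.29 (1.12 to 19.4), had a mean under those of *Cybb* (10.6, range 4.55 to 15.4) and *Rac2* (9.16, range 5.18 to 12.6), with overlapping ranges. Without OM LS replicate 2 the mean of *Nox4* was 3.02 CPM per kb (1.12 to 5.05), below that of *Ncf1* in the same 4 libraries (6.10). By OM HS21 the means were 106 CPM per kb for *Rac1*, 54.4 for *Cyba*, 29.0 for *Rac2*, 28.7 for *Cybb*, 14.9 for *Ncf1*, 9.06 for *Ncf4* and 3.69 for *Nox4*.

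**Figure D1:**
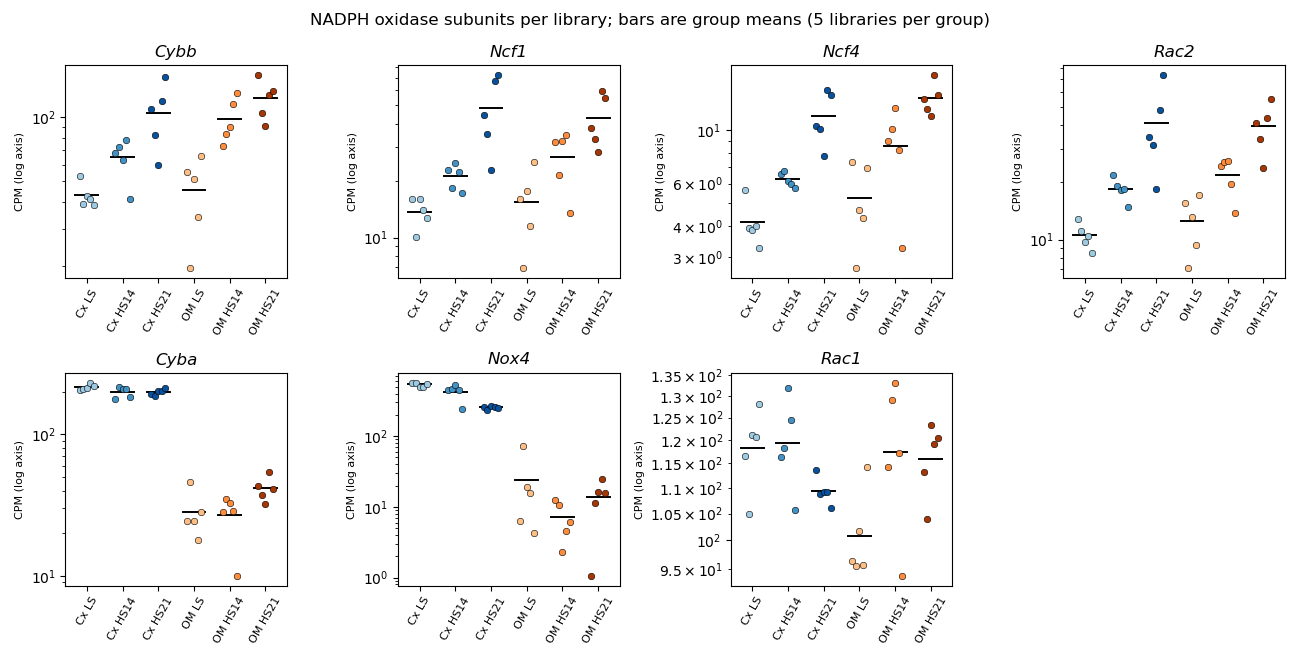
CPM on a log axis in each of the 30 libraries for the 7 subunit genes, by tissue and diet, with a point for each library and a bar at the mean of 5. In the Cx the HS21 points of *Cybb*, *Ncf1*, *Ncf4* and *Rac2* all lie above the LS points and those of *Nox4* all lie below, from 237.6 to 266.8 CPM against 499.8 to 573.0 CPM.

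Which subunits differ between the tissues before salt loading was asked by comparing OM with Cx on LS. *Nox4* was 573.0, 559.9, 501.8, 499.8 and 551.6 CPM in Cx LS and 6.38, 72.7, 19.0, 15.8 and 4.21 CPM in OM LS. Every OM library lay far below every Cx library, and the mean was 4.39% of that in the Cx (log2 ratio −4.50 ± 0.73 SE, adjusted *P* = 0.000789, edgeR quasi-likelihood test with Benjamini-Hochberg adjustment, as for all adjusted *P* values of single genes below). OM LS replicate 2, the library with the high proximal tubule sum, held the highest of these OM values, and without it the log2 ratio was −5.59.

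*Cyba* was 206.0, 210.8, 213.4, 233.1 and 221.7 CPM in Cx LS and 24.5, 46.3, 24.5, 17.8 and 28.3 CPM in OM LS. Its OM libraries were all lower too, with a mean of 13% of that in the Cx (log2 ratio −2.95 ± 0.23, adjusted *P* = 8.47e-06, and −3.22 without OM LS replicate 2). *Rac1* was slightly lower in the OM, at 85.2% of the Cx mean with overlapping libraries (log2 ratio −0.24 ± 0.07, adjusted *P* = 0.0226), but with libraries scaled by total counts, its ratio was 0.0050. The call was also lost without the filter on low counts (adjusted *P* = 0.0536) and without OM LS replicate 1 or 4. Total-count scaling put the median log2 ratio of all genes at 0.27 instead of 0.03, with 5546 genes called higher and 1842 lower in the OM instead of 3051 and 2794. *Cybb*, *Ncf1*, *Rac2* and *Ncf4* had OM to Cx log2 ratios of 0.06, 0.16, 0.24 and 0.32, none called (adjusted *P* = 0.870, 0.688, 0.430 and 0.361). So 3 of 7 members were called lower in the OM, or 2 under either of these settings, where 19.5% of all genes were called lower, and for 2 members every OM library was below every Cx library, which held for 15.9% of all genes.

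The response of the Cx to HS was examined next, first for the catalytic and membrane subunits. *Cybb* was 53.0, 39.3, 42.8, 41.4 and 38.6 CPM in Cx LS, 68.2, 72.9, 63.4, 78.5 and 41.4 CPM in HS14, and 110.0, 82.9, 59.8, 119.1 and 154.9 CPM in HS21. All HS21 libraries and all but replicate 10 of HS14 were above the LS libraries. At HS21 *Cybb* rose (log2 ratio 1.28 ± 0.21, adjusted *P* = 0.000736). At HS14 the log2 ratio was 0.57 ± 0.15 and was not called (adjusted *P* = 0.0639), whereas without Cx HS14 replicate 10 it was 0.69 (adjusted *P* = 0.00405, in a fit that called 1.92% of all genes raised).

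*Nox4* was 444.4, 468.9, 523.2, 452.3 and 239.9 CPM in Cx HS14 and 260.0, 237.6, 266.8, 258.4 and 246.8 CPM in HS21, against the 499.8 to 573.0 CPM of LS given above. The HS21 libraries were close to each other, with a coefficient of variation of 4.57%, and all below LS. Replicate 10 of HS14 lay at the level of HS21. *Nox4* fell at HS21 (log2 ratio −1.10 ± 0.06, adjusted *P* = 3.28e-06), and the call held without any one library. In a fit of all 30 libraries, whose shared dispersion includes the variable OM, the log2 ratio was −1.09 ± 0.55 (adjusted *P* = 0.192). At HS14 the log2 ratio was −0.36 ± 0.16 (adjusted *P* = 0.265), and −0.21 ± 0.06 without replicate 10 (adjusted *P* = 0.0956).

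*Cyba* was 177.4, 216.6, 209.6, 208.3 and 184.4 CPM in Cx HS14 and 194.3, 188.5, 202.6, 201.6 and 211.6 CPM in HS21. The HS21 and LS libraries overlapped. The log2 ratio at HS14 was −0.14 ± 0.06 (adjusted *P* = 0.259). The change at HS21 was small (log2 ratio −0.13 ± 0.05, adjusted *P* = 0.0484) and was lost on removing single libraries, 7 of the 10 in turn (Cx LS replicates 2 to 5 and Cx HS21 replicates 11, 12 and 14, adjusted *P* up to 0.154). It was also lost with DESeq2 (adjusted *P* = 0.0590) and with total counts, where the log2 ratio was −0.0039.

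Of the cytosolic subunits, *Ncf1*, the organizer whose phosphorylation starts assembly, was 15.9, 10.1, 16.1, 13.9 and 12.6 CPM in Cx LS, 22.6, 18.3, 24.7, 22.3 and 17.3 CPM in HS14, and 44.4, 35.3, 22.7, 67.5 and 72.2 CPM in HS21. Both HS groups lay wholly above LS. *Ncf1* rose at HS14 (log2 ratio 0.60 ± 0.13, adjusted *P* = 0.0444) and at HS21 (1.80 ± 0.28, adjusted *P* = 0.000535), but the HS14 call was lost on removing single libraries, 8 of the 10 in turn (all but Cx HS14 replicates 7 and 10, adjusted *P* up to 0.108).

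*Ncf4*, which binds membrane phosphoinositides, was 5.65, 3.96, 3.88, 4.01 and 3.27 CPM in Cx LS, 6.57, 6.80, 6.16, 5.99 and 5.73 CPM in HS14, and 10.4, 10.1, 7.83, 14.7 and 14.0 CPM in HS21. Again no library of either HS group reached down to LS. The rise at HS21 was called (log2 ratio 1.44 ± 0.20, adjusted *P* = 0.000266), while the ratio of 0.57 ± 0.15 at HS14 was not (adjusted *P* = 0.0754, and 0.0398 without Cx LS replicate 1).

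Of the Rac GTPases, *Rac2* was 12.8, 11.1, 9.75, 10.4 and 8.47 CPM in Cx LS, 21.8, 19.1, 18.2, 18.5 and 14.9 CPM in HS14, and 34.7, 31.3, 18.4, 48.2 and 73.6 CPM in HS21. It rose at HS14 (log2 ratio 0.80 ± 0.12, adjusted *P* = 0.0111) and at HS21 (1.96 ± 0.31, adjusted *P* = 0.000541), with no overlap and with every library left out in turn. *Rac1* was 104.9 to 128.0 CPM in LS, 105.6 to 131.9 CPM in HS14 and 106.0 to 113.7 CPM in HS21. Its log2 ratio at HS21 was −0.13 ± 0.05 and was not called (adjusted *P* = 0.0723), although it was called without Cx LS replicate 2 (adjusted *P* = 0.0176).

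In counts, 2 of the 7 members were raised in the Cx at HS14, where 1.14% of the 14181 genes tested were raised, and for 3 members every HS14 library was above LS, which held for 3.06% of all genes. At HS21, 4 members were raised and 2 lowered, beside 18.9% and 20.5% of the 14299 genes tested. For 4 members every library was above LS (12.6% of all genes), and for *Nox4* every library was below (13.8% of all genes). The median log2 ratio of the members at HS21 was 1.28, against 0.0046 over all genes. With libraries scaled by total counts the median of all genes became 0.13 and 4401 genes were called raised and 1653 lowered instead of 2702 and 2936, and the same 4 members were raised and *Nox4* lowered.

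**Figure D2:**
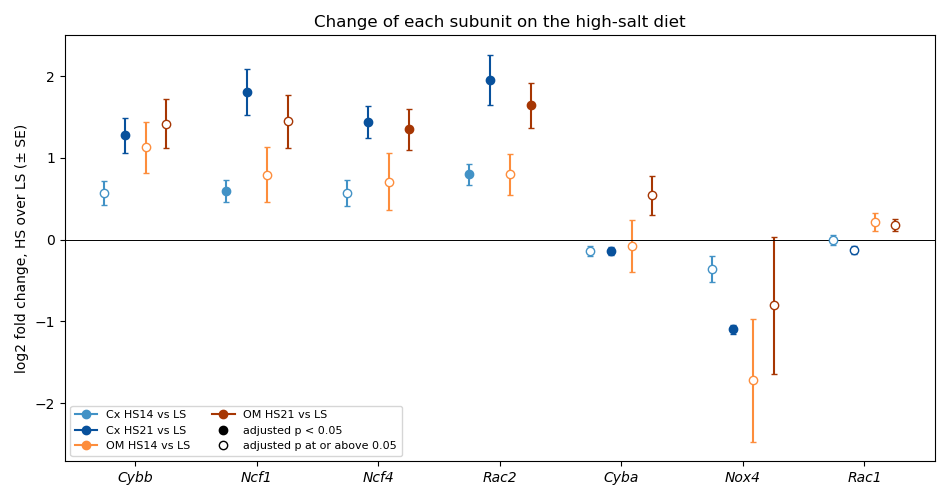
Log2 ratio of each HS group to LS of the same tissue, with its SE, for the 7 subunit genes, filled where the adjusted *P* was under 0.05. *Nox4* is the only member with a ratio under −1 in Cx HS21, at −1.10, and its SE in the OM is 0.84 at HS21.

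The time course within HS was compared directly in the Cx, where both comparisons with LS share the LS libraries. *Ncf1* (log2 ratio of HS21 to HS14 1.20 ± 0.27, adjusted *P* = 0.0160), *Ncf4* (0.87 ± 0.17, adjusted *P* = 0.0111) and *Rac2* (1.16 ± 0.29, adjusted *P* = 0.0239) rose further from 14 to 21 d, beside 6.5% of all genes. *Nox4* fell (−0.74 ± 0.16, adjusted *P* = 0.0138), beside 9.69% of all genes, and by more without Cx HS14 replicate 10 (−0.90, adjusted *P* = 8.17e-05). *Cybb* had 0.70 ± 0.23 (adjusted *P* = 0.0599, and 0.0153 without Cx HS21 replicate 13), and *Cyba* and *Rac1* had 0.0064 and −0.12 (adjusted *P* = 0.956 and 0.154). The *Rac2* call was lost without any one of 4 libraries (Cx HS14 replicates 7, 8 and 9 and Cx HS21 replicate 14).

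The rats of Cx HS21 differed among themselves in the phagocyte genes far more than in the other members. The coefficient of variation was 50.8% for *Rac2*, 43.5% for *Ncf1*, 34.4% for *Cybb* and 25.1% for *Ncf4*, against 4.40% for *Cyba*, 4.57% for *Nox4* and 2.54% for *Rac1*. Replicate 13 was lowest for all 4 phagocyte genes. Replicate 15 was highest for *Cybb*, *Ncf1* and *Rac2*, and replicate 14 for *Ncf4*. The summed level of 13 macrophage markers was also lowest in replicate 13, at 538 CPM, and highest in replicate 15, at 3514 CPM.

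In the OM *Cybb* was 55.6, 19.5, 51.6, 34.0 and 66.0 CPM on LS, 73.1, 83.3, 90.2, 115.9 and 130.1 CPM at HS14, and 158.4, 104.9, 90.7, 127.4 and 132.6 CPM at HS21. Both HS groups were wholly above LS, yet the LS libraries spread over a wide range and neither difference was called (log2 ratio 1.13 ± 0.31, adjusted *P* = 0.496 at HS14, and 1.42 ± 0.30, adjusted *P* = 0.0653 at HS21). Without OM LS replicate 2, which held the lowest value, the HS21 difference was 1.23 and was called (adjusted *P* = 0.0419, in a fit that called 0.522% of all genes raised).

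*Ncf1* in the OM was 16.1, 6.88, 17.6, 11.5 and 25.0 CPM on LS and 37.9, 33.3, 28.5, 59.8 and 54.7 CPM at HS21 (log2 ratio 1.45 ± 0.32, adjusted *P* = 0.0778). *Ncf4* was 7.36, 2.69, 4.69, 4.35 and 6.99 CPM on LS and 13.4, 12.2, 11.4, 16.8 and 14.0 CPM at HS21, where it rose (1.35 ± 0.25, adjusted *P* = 0.0419). *Rac2* was 15.6, 7.05, 13.2, 9.33 and 17.2 CPM on LS and 41.2, 33.8, 23.8, 43.7 and 55.0 CPM at HS21, and rose as well (1.64 ± 0.28, adjusted *P* = 0.0331). For all 3 genes no HS21 library reached down to LS, replicate 2 was lowest on LS and replicate 13 lowest at HS21. The calls of *Ncf4* and *Rac2* were each lost without any one of 7 libraries (OM LS replicates 1, 3 and 4 and OM HS21 replicates 11, 12, 14 and 15), with adjusted *P* up to 0.150 and 0.118. Without OM LS replicate 2, the lowest on LS, the log2 ratios of *Ncf1*, *Ncf4* and *Rac2* were 1.27, 1.19 and 1.5 (adjusted *P* = 0.0674, 0.0413 and 0.0418).

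At HS14 these 3 genes overlapped with LS in the OM. *Ncf1* was 13.4 to 34.7 CPM, *Ncf4* 3.27 to 12.3 CPM and *Rac2* 13.8 to 25.8 CPM, each lowest in the shallow replicate 10. Their log2 ratios of 0.79 ± 0.34, 0.71 ± 0.35 and 0.80 ± 0.25 were not called (adjusted *P* = 0.839, 0.947 and 0.594). Without replicate 10 they were 0.95, 0.90 and 0.91, again not called (adjusted *P* = 0.399, 0.366 and 0.337).

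*Nox4* in the OM was 12.5, 10.5, 2.28, 4.63 and 6.19 CPM at HS14 and 1.05, 11.2, 16.2, 25.0 and 15.8 CPM at HS21, inside the range of 4.21 to 72.7 CPM on LS except for the lowest library of each HS group. The log2 ratio to LS was −1.72 ± 0.75 at HS14 (adjusted *P* = 0.849) and −0.80 ± 0.84 at HS21 (adjusted *P* = 0.836), and without OM LS replicate 2, which held the 72.7 CPM, it was −0.67 and 0.25. No direction can be given for *Nox4* in the OM at HS21. *Cyba* was 28.4, 34.9, 32.7, 29.0 and 9.98 CPM at HS14 and 43.1, 37.5, 32.1, 54.7 and 41.4 CPM at HS21, with overlap. Its log2 ratio at HS21 was 0.54 ± 0.24 (adjusted *P* = 0.417), and 0.79 without OM LS replicate 2 (adjusted *P* = 0.0661). *Rac1* was 95.4 to 114.3 CPM on LS and 104.0 to 123.3 CPM at HS21 (0.18 ± 0.07, adjusted *P* = 0.338).

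In counts, 0 of 7 members were called in OM HS14 in either direction, where edgeR called 0.00694% of the 14417 genes. An unadjusted *P* under 0.05 was held there by 4 members and by 826 genes, and DESeq2 called none of the members. For *Cybb*, as for 1.05% of all genes, every library was above LS. At HS21, 2 members were raised beside 0.639% of all genes, and 4 had every library above LS, as did 2.64% of all genes. DESeq2 called 4 members raised at HS21, beside 3.23% of the genes it tested, and with total counts edgeR called 0. Between OM HS21 and HS14 edgeR called 0 members and 0% of the 14499 genes, with 4 members and 547 genes at an unadjusted *P* under 0.05, while DESeq2 called 17 genes raised and 10 lowered and none of the members.

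A tissue by diet interaction asked whether the 2 tissues changed unequally at HS21. The change in the OM minus that in the Cx was 0.14 ± 0.38 on the log2 scale for *Cybb*, −0.36 ± 0.45 for *Ncf1*, −0.09 ± 0.32 for *Ncf4*, −0.32 ± 0.43 for *Rac2*, 0.30 ± 0.86 for *Nox4*, 0.30 ± 0.09 for *Rac1* and 0.67 ± 0.25 for *Cyba*. No member was called, where 0.665% of all genes were. An unadjusted *P* under 0.05 was held by 2 members (*Cyba* and *Rac1*, adjusted *P* = 0.209 and 0.121) and by 2367 of the 15194 genes tested. DESeq2 called *Rac1* (adjusted *P* = 0.0122), beside 3.62% of all genes. Without OM LS replicate 2 edgeR called *Cyba* (0.95, adjusted *P* = 0.00526) and *Rac1* (0.31, adjusted *P* = 0.0455), in a fit that called 8.28% of all genes. For *Nox4* the SE of the difference, 0.86, was close in size to its change in the Cx.

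The balance of the phagocyte subunits and *Nox4* was measured in each library as the log2 of the ratio of their counts, with 2 counts added to both, which does not depend on how libraries are scaled. In Cx LS the ratio of *Cybb* to *Nox4* was −3.65 ± 0.18 (mean ± SD, *n* = 5) and in Cx HS21 it was −1.34 ± 0.55, an increase of 2.31. The increase was 2.78 for *Ncf1*, 2.49 for *Ncf4*, 2.90 for *Rac2* and 0.96 for *Cyba*, whose ratio to *Nox4* went from −1.31 ± 0.15 to −0.35 ± 0.08. In all 5 cases every HS21 library was above every LS library (two-sided exact permutation test, *P* = 0.00794, the smallest that 5 against 5 libraries allow, and 0.0176 after adjustment over the 20 comparisons).

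At HS14 the ratio to *Nox4* had already increased in the Cx by 0.95 for *Cybb*, 1.0 for *Ncf1*, 0.97 for *Ncf4* and 1.19 for *Rac2* (each adjusted *P* = 0.0176 by the same exact permutation test), whereas the difference of 0.26 for *Cyba* was within the spread (adjusted *P* = 0.238, exact permutation test). Without Cx HS14 replicate 10 the increases were 0.91, 0.87, 0.80 and 1.07, and each still passed (adjusted *P* = 0.0198 to 0.0353, exact permutation test). In the OM the groups overlapped for every subunit and no comparison passed (adjusted *P* = 0.111 to 0.286, exact permutation test, and 0.238 to 0.532 without OM LS replicate 2). Thus 9 of the 20 comparisons passed, all in the Cx, and *Nox4* is part of each of them, so they are not 9 separate results.

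**Figure D3:**
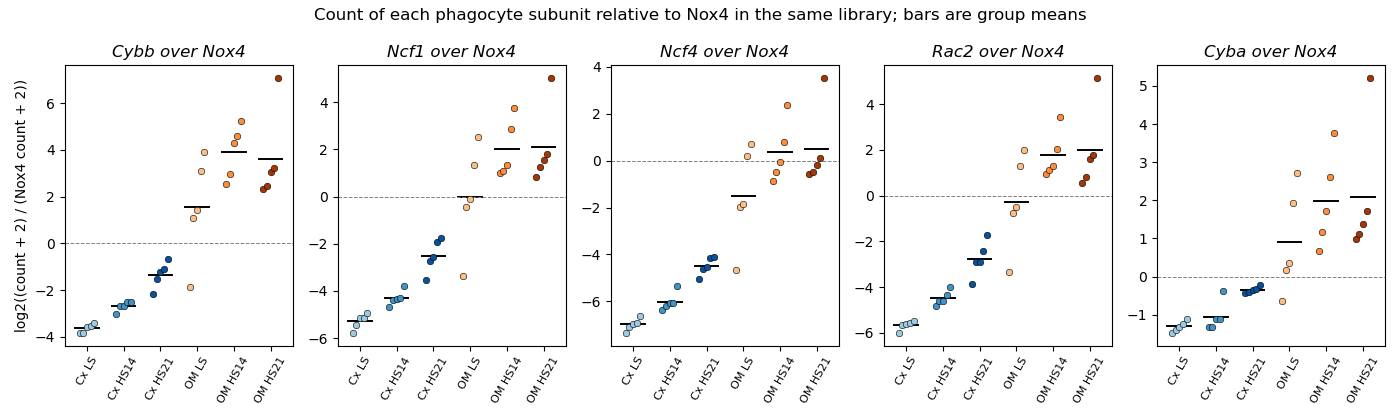
Log2 ratio of the counts of each of 5 phagocyte subunits to those of *Nox4* in the 30 libraries, by tissue and diet. In the Cx the points of *Cybb* move from a mean of −3.65 on LS to −1.34 at HS21 without overlap, while the OM groups overlap in every panel.

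The members were then set beside markers of the cells known to express them. In Cx HS21 all 12 tested of the 13 macrophage markers were raised, and their summed level went from 288 to 418 CPM on LS to 538 to 3514 CPM, with 448 to 828 CPM and 3 raised at HS14. *Lyz2*, lysozyme, made up a median of 46.2% of this sum in Cx LS and 62.7% in Cx HS21, and without it the sum went from 167 to 215 CPM to 281 to 960 CPM. Of 7 general leukocyte markers 6 were tested and all 6 were raised (sum 79.3 to 110 CPM on LS, 123 to 177 CPM at HS14 with 4 raised, 173 to 534 CPM at HS21). Of 7 T cell markers 5 were high enough to test and of 10 neutrophil markers 3. Most of them passed the filter on low counts through HS21, and for those being raised is no separate evidence. At HS14, 3 of 5 tested T cell markers and 2 of 2 tested neutrophil markers were raised. Here too, markers near 0 on LS could pass the filter only through HS14, so these calls are no separate evidence either. Of the listed markers, *S100a9* had means of 0.28 CPM in Cx LS and 5.60 CPM in Cx HS14, and *Cd3e* had 0.35 and 1.33 CPM. The neutrophil sum was 2.44 to 4.04 CPM on LS, 5.35 to 38.3 CPM at HS14 and 9.27 to 32.9 CPM at HS21. Of its genes, *Mpo* and *Elane* were at 0 in every Cx LS library, with 4 and 1 reads over all 30. The counts of *Mpo* and *Elane* are too low to show whether neutrophils were present. Other genes of the list had higher means in Cx HS14 than in Cx LS, such as *S100a8* (3.19 against 0.105 CPM) and *Cxcr2* (0.858 against 0.259 CPM). B cell markers were too low to test. The proximal tubule markers were lowered in 10 of 10 (sum 20837 to 23018 CPM on LS, 12363 to 15995 CPM at HS21), but in 1 of 10 in the fit of all 30 libraries, and 3 of 4 thick ascending limb markers were raised (1335 to 1960 and 2281 to 3109 CPM). None of 5 fibroblast and mesangial or 4 erythroid markers was raised, and 2 of 6 endothelial markers were. In OM HS21 the macrophage sum was 911 to 2266 CPM against 180 to 927 CPM on LS, with 1 of 12 markers called raised (10 with DESeq2) and 4 of 6 general leukocyte markers. The share of these cells in the changes of the members was not tested.

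Relative to the macrophage sum of the same library, *Rac2* in the Cx differed from LS by −0.05 at HS14 and −0.09 at HS21 on the log2 scale, and *Ncf1* by −0.24 and −0.21 (adjusted *P* = 0.190 to 0.921, exact permutation test). The differences were −0.26 and −0.48 for *Ncf4* and −0.30 and −0.69 for *Cybb* (adjusted *P* = 0.190 to 0.571, exact permutation test). *Cyba* relative to the macrophage sum differed by −0.99 and −2.04, with no overlap. Its own mean was 91.8% and 92.0% of LS at these times while the sum rose, so the lower ratio is no separate result on *Cyba*. *Nox4* relative to the proximal tubule sum differed by −0.39 at HS21, also with no overlap, and by −0.22 at HS14. None of the 24 comparisons in both tissues passed after adjustment. The lowest adjusted *P* was 0.0635 by exact permutation test, for *Cyba* in the Cx at both times and for *Nox4* in Cx HS21. Each of these already had the smallest unadjusted *P* that 5 against 5 libraries allow (0.00794, exact permutation test). Adjustment over 24 comparisons kept that *P* above the threshold, so not passing does not decide whether they differed. With *Lyz2* left out of the sum, which was chosen after seeing the data, none passed either, under the same limit. At HS21 the Cx differences became −0.19 for *Cybb*, 0.02 for *Ncf4*, 0.30 for *Ncf1* and 0.42 for *Rac2* (adjusted *P* = 0.0762 to 1.0, exact permutation test). The direction of these differences thus depends on *Lyz2* for *Ncf1*, *Ncf4* and *Rac2*.

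With the general leukocyte list in place of the macrophage list 6 of the 24 comparisons passed at an adjusted *P* of 0.0317 (exact permutation test). These were *Cyba* in each tissue at each time, *Cybb* in Cx HS21 (−0.55), and *Nox4* in Cx HS21, whose own value is the same in both. The mean of *Cyba* itself was 91.8%, 92.0%, 95.4% and 148% of LS in Cx HS14, Cx HS21, OM HS14 and OM HS21, while the leukocyte sum rose. Its lower ratios are thus no separate result on *Cyba*. All 6 comparisons had the smallest *P* that the test allows, and *Nox4* passed here only because more comparisons reached that *P*. Relative to the leukocyte sum, *Rac2* differed by 0.05 at HS14 and 0.06 at HS21 in the Cx. In OM HS14 replicate 10, the shallow library, *Cybb* was the highest of its group at 130.1 CPM with the lowest macrophage sum of its group, 459 CPM.

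**Figure D4:**
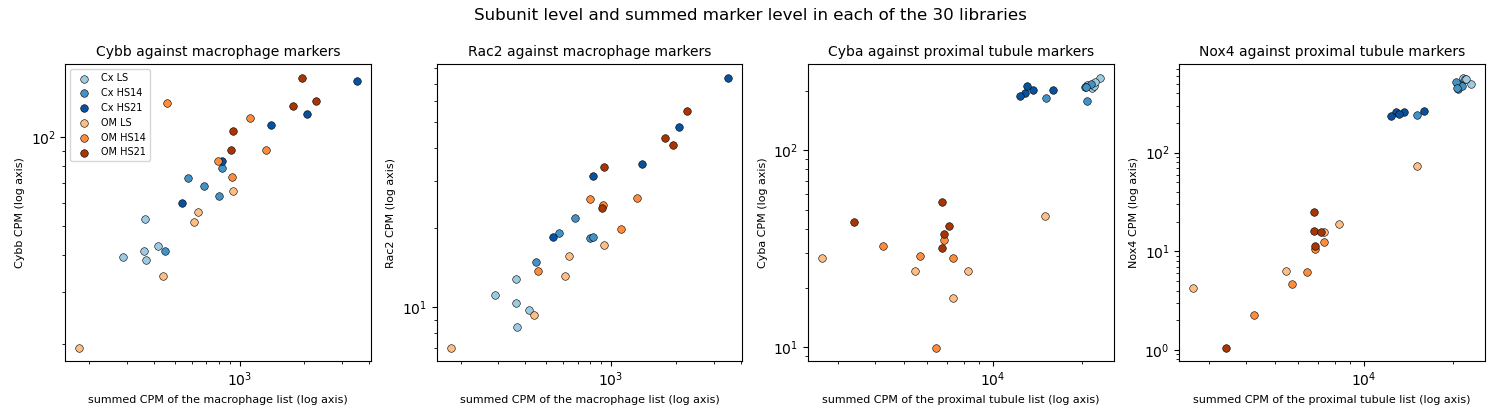
CPM of *Cybb* and *Rac2* against the summed CPM of the macrophage markers, and of *Cyba* and *Nox4* against that of the proximal tubule markers, on log axes, with a point for each of the 30 libraries by tissue and diet. *Cybb* and *Rac2* are high where the macrophage sum is high (up to 3514 CPM in the Cx), and the OM points of *Nox4* extend down to 1.05 CPM.

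Genes with the most similar pattern were sought among 13344 protein-coding genes over the 15 Cx libraries, by Pearson's *r* of log2 CPM. This is a description over libraries that share 3 diet groups, and any gene that differs between the diets has part of its pattern from them. For *Cybb* the first 5 were *Lcp1* (0.979), which encodes the actin bundler L-plastin of blood cells, *Ptprc* (0.979), the leukocyte antigen CD45, *Nckap1l* (0.979), a WAVE complex subunit of blood cells acting under Rac, *Csf1r* (0.979), the receptor for the macrophage growth factor M-CSF, and *Myo1f* (0.978), a myosin of immune cells. Over the 15 OM libraries the same 5 had *r* of 0.948, 0.963, 0.981, 0.960 and 0.949. *Csf1r* and *Ptprc* are themselves in the marker lists above.

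Among the members *Rac2* ranked 31 of 13344 for likeness to *Cybb* (*r* = 0.963), *Ncf1* 69 (0.945) and *Ncf4* 129 (0.931). *Cyba*, *Rac1* and *Nox4* had *r* of −0.25, −0.27 and −0.60. The 5 genes most like *Nox4* in the Cx were *F13b* (0.986), a coagulation factor subunit, *Epb41l3* (0.978), a membrane skeleton protein, *Picalm* (0.977), a clathrin adaptor, *Pgrmc1* (0.976), a haem-binding membrane protein, and *Hs1bp3* (0.976). In the OM the same 5 had *r* of 0.768, 0.806, 0.702, 0.820 and 0.194 with *Nox4*. *Lrp2*, which encodes the endocytic receptor megalin of the proximal tubule, ranked 205 (0.927), and *Slc34a1*, the phosphate transporter of that segment, ranked 832 (0.850). *Cyba* had an *r* of 0.53 and *Rac1* of 0.67 with *Nox4*.

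Other genes of the pathway were taken from 4 lists and read in Cx HS21 against the 18.9% of all genes raised and 20.5% lowered. Of the other NADPH oxidases and helper proteins, 3 of the 11 listed were expressed enough to test and 2 were raised. These were *Hvcn1* (1.21 ± 0.31, adjusted *P* = 0.0101), the proton channel that balances the charge the oxidase moves, and *Nrros* (0.95 ± 0.11, adjusted *P* = 0.000113), which encodes a protein of myeloid cells known to limit superoxide production. *Poldip2*, whose product binds p22phox beside NOX4, had a log2 ratio of 0.02. *Nox1*, *Nox3*, *Noxo1*, *Noxa1*, *Duox1*, *Duox2*, *Duoxa1* and *Duoxa2* were too low to test.

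Of 12 Rac relatives and regulators 8 were raised and 1 lowered. The largest ratios were those of *Vav1* (1.53 ± 0.36, adjusted *P* = 0.00608) and *Dock2* (1.48 ± 0.41, adjusted *P* = 0.0139), exchange factors of blood cells, *Arhgdib* (1.25 ± 0.22, adjusted *P* = 0.00110), a GDP-dissociation inhibitor of blood cells, and *Tiam1* (0.93 ± 0.12, adjusted *P* = 0.000207), a Rac exchange factor of many cell types. *Vav2*, the widely expressed relative of *Vav1*, was the one that fell (−0.31 ± 0.06, adjusted *P* = 0.00244).

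Of 12 entries for kinases that act on the oxidase 5 were raised and 3 lowered. *Prkcb* (1.46 ± 0.29, adjusted *P* = 0.00203), a protein kinase C that phosphorylates p47phox, *Pik3cd* (1.19 ± 0.23, adjusted *P* = 0.00192) and *Pik3cg* (0.81 ± 0.22, adjusted *P* = 0.0121), the phosphoinositide 3-kinases of leukocytes, rose with *Prkcd* (0.46) and *Akt1* (0.19). *Prkca*, another protein kinase C, fell (−0.84, adjusted *P* = 2.1e-05), as did *Mapk14* (−0.30) and *Pak1* (−0.15, adjusted *P* = 0.0394), and the *Pak1* call was lost with total counts (−0.02).

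Of 7 transcription factors known to act on the phagocyte genes 5 were raised and 1 lowered. *Irf1* (1.81 ± 0.30, adjusted *P* = 0.000744), *Spi1* (1.33 ± 0.18, adjusted *P* = 0.000198), *Cebpb* (1.32 ± 0.29, adjusted *P* = 0.00383), *Runx1* (1.29 ± 0.30, adjusted *P* = 0.00590) and *Irf8* (1.13 ± 0.21, adjusted *P* = 0.00167) rose. *Cebpa* fell (−0.28 ± 0.07, adjusted *P* = 0.00894, lost with total counts), and *Elf1* had 0.02. *Spi1*, which encodes PU.1, ranked 41 for likeness to *Cybb* in the Cx (*r* = 0.957). In OM HS21 1 gene of the 4 lists was called, *Pik3cd* (1.21, adjusted *P* = 0.0451), where DESeq2 called 0, 5, 3 and 3 genes of the 4 lists in the order given.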

How the data were processed

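The libraries held poly(A) RNA and did not mark strand. Reads were aligned by the authors to Ensembl Rnor_6.0 with HISAT2 2.0.5 and counted per gene with featureCounts 1.5.0-p3 (versions per the submitters' processing notes, which also name StringTie 1.3.3b). They deposited whole-number counts without normalization, from which all values were computed. 30 deposited FPKM columns and 35 columns of the authors' own comparisons (group means, fold changes, *P* values) were not used.

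Samples were grouped by their labels. Genes were tested with edgeR 4.0.16 in R 4.3.3 on the libraries of the groups compared (filterByExpr with the group, TMM, glmQLFit and glmQLFTest), with Benjamini-Hochberg adjustment over all genes tested and a threshold of 0.05. The SE was the log2 ratio divided by the root of F. CPM used TMM library sizes, and log2 CPM a prior count of 2. Ratios of members to *Nox4* (20 comparisons) and to marker sums (24) were tested by two-sided exact permutation over 252 regroupings. Alternatives were total counts, no filter, DESeq2 1.42.0, 1 fit over 30 libraries, a replicate block, 0.5 counts added to the ratios, the general leukocyte list, the macrophage list without *Lyz2* (added after seeing the data) and leaving out each library in turn (90 fits). The tests were tried on simulated data. No library was a copy of another, the 60 pairs within groups differing by at least 7.29 times the counting noise per gene.

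The members and gene lists were chosen with earlier results of these data known. Named are all members, from each pathway list up to 4 genes with the largest called change in Cx HS21 and any needed to account for a count of 5 or fewer, and the 5 genes most similar to *Cybb* and to *Nox4*, among those with a mean of at least 1 CPM. *Cybc1*, *Dock1* and *Arhgdig* of the lists and the identity of the proteins were not analysed here, and 1 further gene is not reported here.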

Additional observations from a re-analysis of the deposited data

Results flagged for a closer look

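In each of the 42 sets of 5 libraries formed by a member and a group, the highest and the lowest library were compared with the rest by Dixon's statistic (gap to the nearest library over the range), for which 0.71 is the 95% critical value with 5 libraries. Chance gives about 1 in 20 such sets. Of these, 3 exceeded it. *Nox4* in Cx HS14 was 239.9 CPM in replicate 10, lower than in the other 4 libraries (statistic 0.722). *Nox4* in OM LS was 72.7 CPM in replicate 2, the highest of its group (statistic 0.785). *Cyba* in OM HS14 was 9.98 CPM in replicate 10, the lowest of its group (statistic 0.737), in the library with 5408126 counts. The proximal tubule sum moved with both *Nox4* values, being lowest of its group in Cx HS14 replicate 10 (15157 CPM) and highest of its group in OM LS replicate 2 (15079 CPM), and the part of this in the *Nox4* values was not tested.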

How the results depend on the processing

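The 4 raised phagocyte genes of Cx HS21 kept their direction and their call under every alternative run, and *Nox4* under all but the fit over 30 libraries. The count of members raised in Cx HS14 was 4 with DESeq2 and 0 in the fit over 30 libraries. The count lowered in Cx HS21 was 1 with total counts, DESeq2 and no filter and 0 in the fit over 30 libraries, which also gave 0 lowered between Cx HS21 and HS14 and 1 raised in OM HS14. In OM HS21, 0 members were raised with total counts and 4 with DESeq2 or in the fit over 30 libraries. DESeq2 called 1 member in the interaction, and 6 ratios to marker sums passed with the general leukocyte list. With single libraries left out, members raised ranged from 1 to 3 in Cx HS14, 0 to 4 in OM HS21 and 0 to 2 in the interaction, and members lowered from 1 to 2 in Cx HS21 and 1 to 2 between Cx HS21 and HS14. Members raised between Cx HS21 and HS14 were 2 to 4 in these fits, 4 with total counts or DESeq2 and 2 in the fit over 30 libraries, and members lower in the OM were 2 to 3.

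Many of the values that changed sign were near 0 or had a wide spread. Others lay further from 0 in the main analysis, such as *Rac1* between the tissues (−0.24 ± 0.07). Relative to the macrophage sum in the Cx, *Ncf1* at HS14 (−0.24) and *Ncf4* at HS21 (−0.48) were also among them. *Rac1* became 0.0091 (total counts), 0.0043 (no filter) and 0.0036 (fit over 30 libraries) in Cx HS14, and with total counts 0.0029 in Cx HS21 and 0.0050 between the tissues. *Cybb* became −0.00034 in the interaction with total counts. *Rac2* relative to markers became 0.052 (HS14) and 0.060 (HS21) with the leukocyte list in the Cx. With *Lyz2* left out of the macrophage sum, an alternative chosen after seeing the data, the Cx values at HS14 and HS21 became 0.013 and 0.30 for *Ncf1*, 0.00038 and 0.025 for *Ncf4* and 0.21 and 0.42 for *Rac2*. With single libraries left out, *Rac1* in Cx HS14 ranged from −0.041 to 0.030, *Cyba* from −0.19 to 0.17 in OM HS14 and −0.039 to 0.031 between Cx HS21 and HS14, and *Nox4* from −1.12 to 0.25 in OM HS21. Between the tissues *Cybb* ranged from −0.10 to 0.24 and *Ncf1* from −0.077 to 0.32. In the interaction *Cybb* ranged from −0.032 to 0.32, *Ncf4* from −0.23 to 0.064 and *Nox4* from −0.025 to 1.38. *Rac2* relative to the macrophage sum ranged from −0.13 to 0.052 in Cx HS14 and −0.20 to 0.014 in Cx HS21. The cause was not tested.

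Cx and OM were dissected from the same kidneys, but no label ties equal numbers to one rat, so the block was not used. Their deviations correlated at −0.08 to 0.51, with 12 of 15 pairs over 0.1 and 13 correlating best with their own number. With a replicate block 3 members remained lower in the OM on LS, *Cybb* there became −0.034, no member was called in the interaction, where the SE of *Ncf1* became 0.25 instead of 0.45, and the genes called between the tissues were 2442 higher and 2569 lower instead of 3051 and 2794.

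In the OM the spread between rats limits what can be seen: the SE of *Nox4* was 0.84 at HS21.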
